A study of Mus musculus with 3 samples.

Results

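SETDB1 and KMT2E, both SET-domain proteins, were targeted with siRNA in mouse cells early in reprogramming, and each knockdown was compared with a non-targeting control siRNA (nt). The libraries were chosen by their names in the count table: 3 of siSetdb1 and 3 of siKmt2e, which make up 6 of the 127 libraries analysed. The controls were 3 nt libraries and 5 Mock libraries, the latter named Mock in the table without further description. Of the Mock libraries, 2 of replicate 1 and 2 of replicate 2 share their column name with each other, and the labels do not say whether such a pair came from separate cultures, so p-values against Mock would be too small if it did not. A further 92 libraries of 31 other siRNAs and 21 libraries of a time course without transfection served as reference. All libraries came from primary embryonic fibroblasts of wild-type BL6 mice, reprogrammed at passage 2 after transduction with a tet-inducible lentivirus carrying Oct4, Sox2, Klf4 and c-Myc (tet-OSKM, STEMCCA) and an rtTA lentivirus, which makes the cassette respond to doxycycline, at a multiplicity of infection of 1. In the transfected groups, the siRNAs were given at 40 nM with RNAiMAX, and 24 hours later the cells were replated and induced with 2 ug/mL doxycycline. The reprogramming medium held doxycycline with 3 uM chiron, an inhibitor of GSK3, 0.25 uM of the TGFb inhibitor Alk5i, 50 ug/mL ascorbic acid and LIF. The study's methods count its addition as day 0. Day 0 of the time course thus marks the start of treatment, and its later days were under doxycycline as well. RNA of the transfected groups was taken on day 6, and that of the time course on days 0 to 6. Total RNA from bulk cultures was read by CEL-Seq2, which counts 1 molecule identifier (UMI) per captured transcript near its 3′ end.

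SETDB1 adds methyl groups to lysine 9 of histone H3. It works with ATF7IP and is brought to chromatin by KAP1 (the product of Trim28) and zinc finger proteins, and it is known for keeping retroelements and germline genes silent. KMT2E, also called MLL5, has a PHD finger that binds histone H3 trimethylated at lysine 4 and a SET domain, and it is generally regarded as lacking methyltransferase activity of its own. Each was targeted with a pool of siRNAs, so a difference cannot be assigned to 1 siRNA of a pool.

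The siRNA sequences are shown because they define the treatment. For each gene, 2 siRNAs of the pool were matched to GENCODE transcripts of build GRCm38, and the third was not analysed here. The antisense strand of each is written 5′ to 3′, with the seed, bases 2 to 8, in capitals. All 4 sites lie in coding sequence.
siKmt2e siRNA 1, antisense strand: aAACCUUUuucuuuugugg
siKmt2e siRNA 2, antisense strand: uCAGUUUCugguucuauag
siSetdb1 siRNA 1, antisense strand: aAUGUACUgacgaaguucc
siSetdb1 siRNA 2, antisense strand: uGUGUUAAugaaaacaccc
The site of siKmt2e siRNA 1 reads ccacaaaagaaaaagguuu and spans the junction of exons 22 and 23 of 27 (chr5:23498280-23499285, plus strand), and it is present in 2 of the 3 coding transcripts of Kmt2e. The site of siKmt2e siRNA 2 reads cuauagaaccagaaacuga and lies in exon 17 (chr5:23493407-23493425, plus strand). In Setdb1, the site of siRNA 1 reads ggaacuucgucaguacauu and lies in exon 2 of 22 (chr3:95356062-95356080, minus strand), and the same 19 bases occur in Gm4349. The site of siSetdb1 siRNA 2 reads ggguguuuucauuaacaca and lies in exon 13 (chr3:95338396-95338414, minus strand). No seed is shared between the 4 siRNAs. The sites lie 2258 to 4681 bases from the end of their transcripts, outside the 3′ ends that the assay counts.

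The libraries held 61580, 73588 and 148408 counts for siSetdb1 and 75657, 69726 and 126029 for siKmt2e in replicates 1, 2 and 3. The nt libraries held 75100, 80136 and 143156 counts, and the Mock libraries were shallower, with 38925 to 83089. At this depth 3013 genes could be tested, and 7994 to 10546 genes had at least 1 count in a library of either knockdown. Mitochondrial genes took 23.64% to 26.05% of the counts in siSetdb1, 24.28% to 27.38% in siKmt2e, 22.83% to 26.3% in nt and 22.86% to 28.63% in Mock, so these ranges overlap. The 3 replicates of a condition lie in 3 separately sequenced pools, and the labels do not say whether they were separate cell preparations, so p-values measure the spread between these libraries. Levels are given in CPM, the usual unit of counts scaled to library size, here to the TMM-scaled total of tested genes, and differences as log2 fold changes with their SE from edgeR's quasi-likelihood test with the replicate as a block, with Benjamini-Hochberg adjusted p. Counts from cultures cannot separate fewer cells of a type from less RNA per cell.

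The markers of the source cells were checked first. In sums over 28 mesenchymal genes, typical of fibroblasts, siSetdb1 held 2858 to 3342 CPM, for gene lists relative to all counts of a library, and siKmt2e 3212 to 3491, nt held 2647 to 3369 and Mock 3045 to 4805. Untransfected cells held 15900 to 18410 on day 0 and 5103 to 6484 on day 6. All 4 transfected groups lay below both days in these genes and overlapped each other. In 22 pluripotency genes, the sums were 101.1 to 227.3 CPM in siSetdb1, 52.87 to 143.4 in siKmt2e and 118.8 to 253 in nt. None of these 22 genes had enough counts for the main test, and none of them passed when tested together with the other low genes. Of 11 immune markers, 10 were at 0 in siSetdb1, 9 in siKmt2e and 9 in nt, and a library held 0 to 1, 0 to 1 and 1 to 3 counts of the list. The macrophage lysozyme gene Lyz2, the only immune gene with enough counts to test, had 0 counts in both knockdowns, 5 in nt and 3 in Mock. Endothelial markers summed to 0 to 6 counts in siSetdb1, 0 to 1 in siKmt2e and 0 to 2 in nt, and keratinocyte markers to 5 to 21, 5 to 9 and 4 to 12. The 10 neural markers held 289.7 to 324.8 CPM in siSetdb1, 222.2 to 401.6 in siKmt2e, 237.1 to 253 in nt and 231.2 to 401 in Mock, so siSetdb1 lay above nt and inside the range of Mock. No gene of these 3 lists was called in any comparison of the knockdowns with nt, with Mock or with each other.

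Neither target was measurably lowered. Setdb1 was close to the limit of detection: the siSetdb1 libraries held 0, 0 and 2 counts, siKmt2e 1, 0 and 2, nt 0, 0 and 1, and Mock 1 count in 5 libraries. The ratio of siSetdb1 to nt was 2.1 with an exact 95% counting interval of 0.11 to 124 (exact conditional test, two-sided p = 0.616), and against an expected count of 2.17, from the gene's share in all remaining transfected libraries per replicate, it was 0.921 (0.112 to 3.33). Such an interval holds both a near-complete loss and a large rise, so that a knockdown of Setdb1 was not detectable at this depth in either direction. Kmt2e had more counts. The siKmt2e libraries held 1, 5 and 9 and the nt libraries 5, 8 and 5, and the groups overlapped. The ratio of the summed counts was 0.916 (0.43 to 1.93, exact conditional test, two-sided p = 0.863), and 0.664 (0.372 to 1.1) against the expected 22.6 counts. It was 1.23 without replicate 1 and 1.08 without replicate 2, so its direction rested on single replicates. The edgeR estimate for Kmt2e in siKmt2e was -0.04 ± 0.56 (adjusted p = 0.99). In siSetdb1, Kmt2e held 6, 4 and 19 counts, a ratio of 1.7 to nt (0.91 to 3.24, exact conditional test, two-sided p = 0.0809). The comparisons that follow are between libraries with these labels, without the loss of the target shown in the same RNA.

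Against nt, siSetdb1 gave 4 genes past an adjusted p of 0.05, all of them lower, which is 0.133% of the genes tested, and 0 higher (203 genes had an unadjusted p under 0.05). siKmt2e gave 39, or 1.29%, with 23 higher (0.763%) and 16 lower (0.531%), where limma on the deposited log2 values gave 3 higher and 7 lower. The direct test of siSetdb1 against siKmt2e gave 67, or 2.22%, of which 26 were higher (0.863%) and 41 lower (1.36%) in siSetdb1. These counts rest on the replicate block: without it the same 3 comparisons gave 0, 5 and 4 calls, while 133, 232 and 272 genes had an unadjusted p under 0.05. They also fell when a library was left out. siKmt2e against nt gave 15 calls without siKmt2e replicate 3, 19 without nt replicate 3, 21 without siKmt2e replicate 2 and 26 without nt replicate 2, and 29 to 31 without either library of replicate 1. The direct test gave 28 to 43 calls without any 1 of its 6 libraries, and siSetdb1 against nt gave 3 without siSetdb1 replicate 1 and 2 without any 1 of the other 5 libraries.

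**Figure D1:**
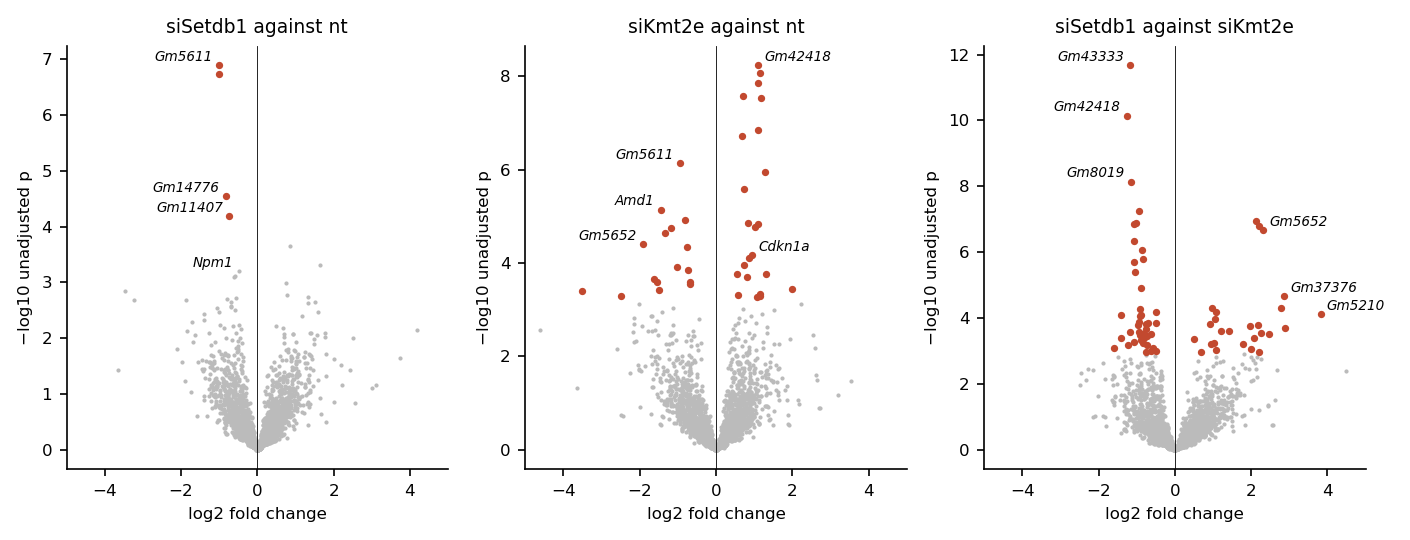
Log2 fold change (x axis) against -log10 of the unadjusted p of edgeR's quasi-likelihood test (y axis) for the 3013 genes tested, for siSetdb1 against nt, siKmt2e against nt and siSetdb1 against siKmt2e, with genes at an adjusted p under 0.05 in red. The 4 red genes of siSetdb1 are all on the lower side, while siKmt2e has 23 to the right and 16 to the left.

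A property of the called genes was that most share their sequence with other genes. Genes were joined in groups where the last 500 bases of their transcripts shared at least 35% of their 15-base words, a grouping made after the calls were seen. Of the 3013 genes tested, 31.4% were in such a group, against 75% of the 4 genes called in siSetdb1 against nt, 71.8% of the 39 in siKmt2e against nt and 82.1% of the 67 in the direct comparison. Reads from near-identical copies can be split among them by the counting, so the values of a single copy are uncertain, and sums are given for the groups the results turn on. For the same reason the members of a group are not separate observations. Counts of members above, below or called describe how a sum is made up and add no support to it. Shares called over all genes are given with each comparison. With copies summed, 2549 features were tested and the same 3 comparisons gave 1, 26 and 25 calls.

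**Figure D2:**
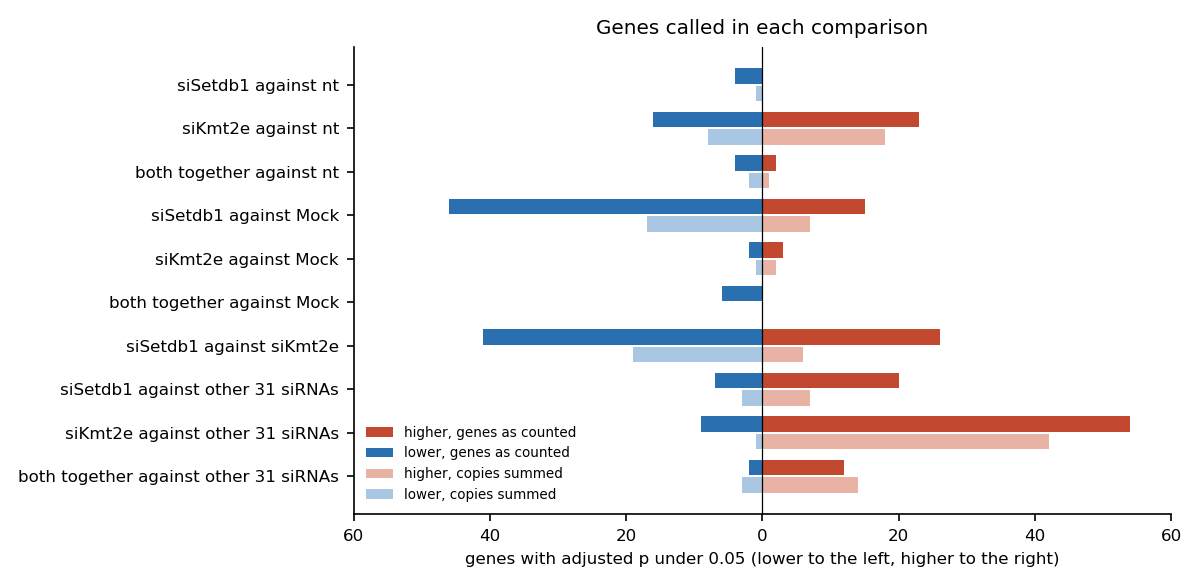
Number of features past an adjusted p of 0.05 (x axis, higher to the right and lower to the left) in 10 comparisons of siSetdb1, siKmt2e or both with nt, Mock, each other and the other siRNAs, for genes as counted and for near-identical copies summed. The bars of siSetdb1 against nt reach 4 genes as counted and 1 feature after summing, those of siKmt2e 39 and 26.

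The genes lower in siSetdb1 were led by copies of Npm1, which encodes nucleophosmin, a nucleolar histone chaperone with a part in ribosome assembly. The last 30 coding bases of Npm1 and of 3 retrocopies are shown to make plain how close they are, with capitals for bases that differ from Npm1 (build GRCm38).
Npm1, chr11:33152817-33152846, minus strand, exon 11: caagatctctggcagtggaggaaatctctt
Gm5611, chr9:17030867-17030896, plus strand: caagatctctggcagtggaggaaGtctctt
Gm17060, chr6:49424064-49424093, minus strand: TaagatctctggcagtggaggaaGtctctt
Gm14681, chrX:66778445-66778474, minus strand: caagatctctggcagtggaggaaGtctctt
The retrocopies share 92.9% (Gm14681), 71.4% (Gm5611) and 44.4% (Gm17060) of their 15-base words with Npm1. Gm5611, a processed pseudogene (chr9:17030045-17030896), stood at 5262, 6057 and 4501 CPM in nt and at 2747, 3016 and 2112 CPM in siSetdb1, and at 2936, 2960 and 2313 CPM in siKmt2e. Every library of both knockdowns lay below every nt library, and the difference was -1.02 ± 0.19 for siSetdb1 (adjusted p = 0.000276) and -0.95 ± 0.19 for siKmt2e (adjusted p = 0.000271). Gm17060, which lies opposite Stk31 (chr6:49424061-49424884, minus strand), was at -0.997 in siSetdb1 (adjusted p = 0.000276) and -0.83 in siKmt2e (adjusted p = 0.00304). Npm1 itself stood at 5729, 5997 and 6977 CPM in nt, 3819, 4411 and 5180 CPM in siSetdb1 and 5998, 5254 and 5934 CPM in siKmt2e, which was -0.48 ± 0.14 in siSetdb1 (adjusted p = 0.269) and -0.12 in siKmt2e (adjusted p = 0.833). So the siSetdb1 libraries were all under the nt libraries in Npm1 too, without passing the test across all genes.

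Summed over the 7 genes of the Npm1 group, nt held 18890, 18740 and 19210 CPM, siSetdb1 11570, 11620 and 11170 CPM, and siKmt2e 14290, 12470 and 13150 CPM. The sum was -0.73 ± 0.15 in siSetdb1 (adjusted p = 0.0097), where all 6 tested members were below nt and 2 passed the test singly, and -0.51 ± 0.15 in siKmt2e (adjusted p = 0.0757). The 2 knockdowns did not differ detectably from each other in it (-0.21 ± 0.15, adjusted p = 0.704). Among the 35 transfected conditions the nt mean, 18950 CPM ± 238 (SD, n = 3), was the highest, and that of siSetdb1, 11450 CPM ± 243 (SD, n = 3), ranked 23rd against a median of 12260 CPM. Against the mean of the other 31 siRNAs the group was -0.07 ± 0.11 in siSetdb1 (adjusted p = 0.943). The Npm1 group thus set nt apart from most transfected conditions, siSetdb1 among them. Mock, with 12570 to 18310 CPM, lay between, and siSetdb1 differed from Mock by -0.50 (adjusted p = 0.0435), a call that held in 1 of 12 alternative settings. Without the replicate block the adjusted p against nt was 0.658, and of the 6 tests that left out 1 library the call held without nt replicate 1 and without siSetdb1 replicate 2 (adjusted p = 0.033 and 0.0435) and was lost without each of the other 4 (adjusted p up to 0.218).

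The other 2 genes called in siSetdb1 are also gene models with copies or within other genes. Gm14776, which lies within Il1rapl1 (chrX:87771339-87772352, minus strand), stood at 3347, 3245 and 3104 CPM in nt, 2202, 1913 and 1474 CPM in siSetdb1 and 1993, 2017 and 1780 CPM in siKmt2e. Both knockdowns lay below nt in all libraries, by -0.82 ± 0.19 (adjusted p = 0.0281) and -0.75 ± 0.19 (adjusted p = 0.0176), and nt again had the highest mean of the 35 conditions. The call in siSetdb1 held in 7 of 19 alternative settings. Gm11407 (chr4:80002331-80003388, plus strand), which shares 37.4% of its 15-base words with the mitochondrial gene mt-Nd5, stood at 1532, 1959 and 1495 CPM in nt and 1013, 1184 and 837 CPM in siSetdb1 (-0.73 ± 0.18, adjusted p = 0.0491), a call that held in 1 of 19 alternative settings. In siKmt2e it was at 1087, 1369 and 1348 CPM, -0.36 against nt (adjusted p = 0.421).

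**Figure D3:**
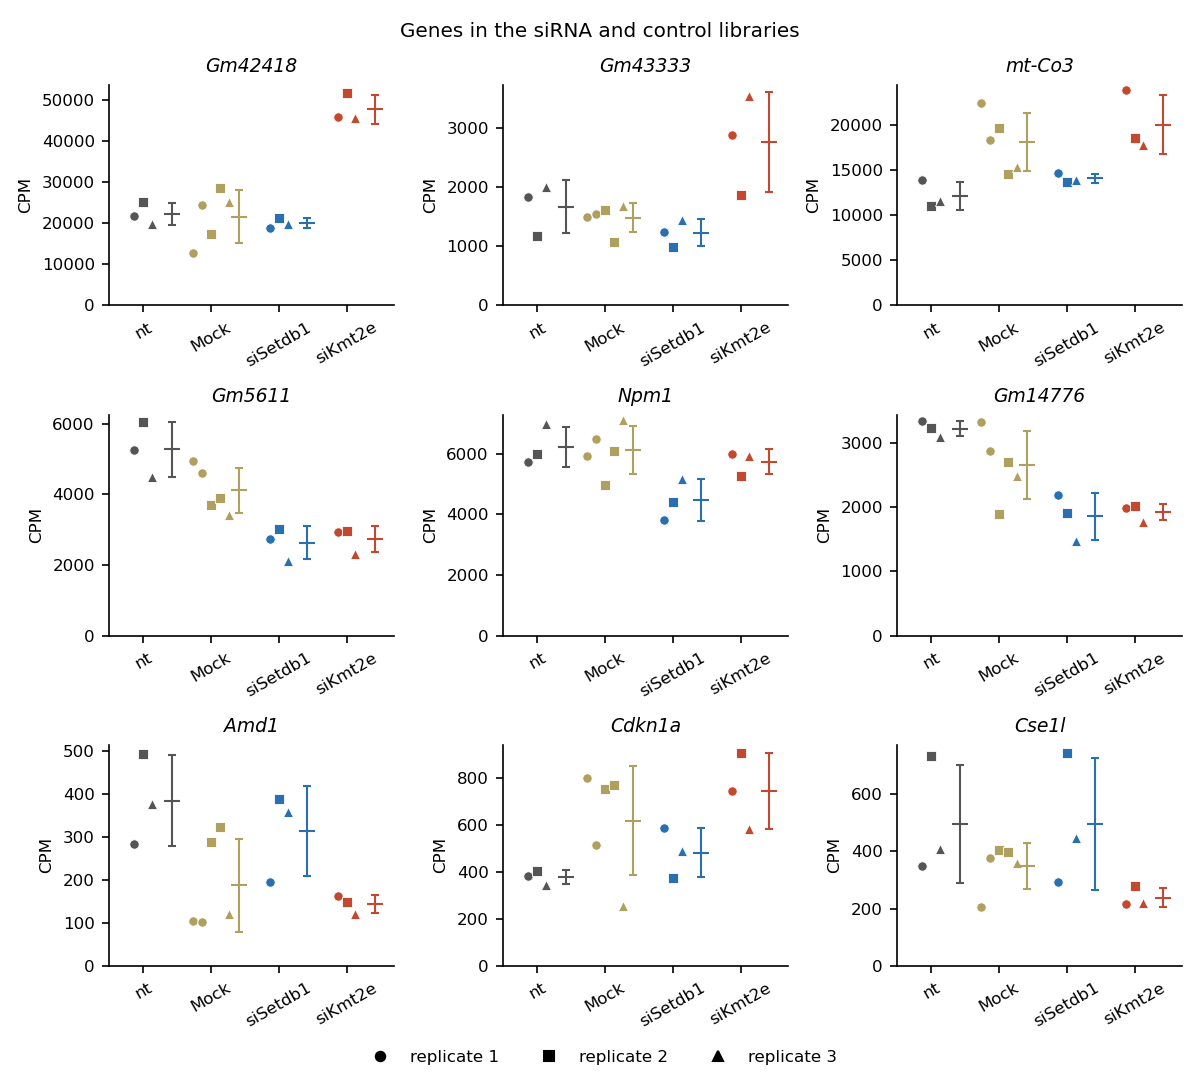
Level in CPM (y axis) of 9 genes in each library of nt, Mock, siSetdb1 and siKmt2e (x axis), with the marker shape giving the replicate and the mean ± SD beside the points. Gm42418 is at 45560 to 51840 CPM in siKmt2e and at most at 28470 CPM in the other groups, and Gm5611 and Gm14776 lie lower in both knockdowns than in nt.

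The most abundant of the genes called in siKmt2e was Gm42418. This gene is annotated as a long intergenic RNA at chr17:39846958-39848788 (plus strand), carries the RefSeq symbol Rn18s-rs5, an 18S ribosomal RNA related sequence, and lies opposite AY036118. It stood at 45980, 51840 and 45560 CPM in siKmt2e, at 21750, 25160 and 19850 CPM in nt, at 12700 to 28470 CPM in Mock and at 18800, 21390 and 19920 CPM in siSetdb1. No siKmt2e library overlapped any of the other 3 groups, and siKmt2e had the highest mean of the 35 transfected conditions while siSetdb1 ranked 21st. The difference was 1.11 ± 0.18 against nt (adjusted p = 1.26e-05), 1.15 ± 0.16 against Mock (adjusted p = 2.57e-08) and 1.18 ± 0.11 against the other 31 siRNAs (adjusted p = 2.3e-17). The last test is against a mean of conditions, so its SE holds the spread between libraries and not that between siRNAs. Among the other siRNAs the highest mean of Gm42418 was 44100 CPM, in siHdac1. In siSetdb1 it was -0.15 ± 0.18 against nt (adjusted p = 0.973), and the direct test of the 2 knockdowns gave -1.25 ± 0.18 (adjusted p = 1.07e-07). Gm42418 was also among the few genes still called without the replicate block (1.10 against nt, adjusted p = 0.0248). It took 3.353% to 4.019% of the counts of a siKmt2e library and 1.697% to 2.099% of those of a nt library. In single libraries of other siRNAs this share ran from 0.208% to 4.10%, and in untransfected cells it was high on day 3, at 43820 CPM ± 2126 (SD, n = 3), and 15340 CPM ± 4227 (SD, n = 3) on day 6.

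Gm43333, an unassigned transcript (chr5:104070064-104072325, minus strand) that overlaps Gm17660, followed the same order. It stood at 2881, 1869 and 3540 CPM in siKmt2e, 1832, 1167 and 2010 CPM in nt, 1067 to 1687 CPM in Mock and 1247, 989 and 1442 CPM in siSetdb1. siKmt2e overlapped nt but not Mock or siSetdb1, and within each replicate it was above nt. The difference was 0.73 ± 0.15 against nt (adjusted p = 0.000769) and 0.81 ± 0.14 against Mock (adjusted p = 6.9e-05), and siSetdb1 differed from siKmt2e by -1.17 ± 0.16 (adjusted p = 6.13e-09, and 0.13 without the block). In the fit with copies summed, where it has no copy, the call against nt held in 7 of 10 alternative settings and was lost without replicate 2 or 3 (adjusted p = 0.0867 and 0.189) and without the block (adjusted p = 0.679). Of the 35 conditions siKmt2e ranked first and siSetdb1 29th.

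Among mitochondrial transcripts, mt-Co3, which encodes subunit III of cytochrome c oxidase, was higher in siKmt2e. Its libraries held 23870, 18630 and 17760 CPM against 13960, 11020 and 11610 CPM in nt, 14690, 13650 and 13930 CPM in siSetdb1 and 14620 to 22530 CPM in Mock. siKmt2e lay above all nt and siSetdb1 libraries and within or above the range of Mock. The difference from nt was 0.72 ± 0.12 (adjusted p = 1.73e-05), and 0.73 ± 0.13 summed with its copy Gm28437 (adjusted p = 2.81e-05, and 0.00932 without the block). Of 15 genes of mitochondrial DNA tested, mt-Co3 was the only one called against nt, beside 1.29% of all genes tested, and the median difference was 0.28 beside -0.0008 over all genes. mt-Nd4l, which encodes a subunit of complex I and shares all of its 15-base words with Gm10222, went the other way between the knockdowns, with 857, 1849 and 813 CPM in siSetdb1 and 689, 518 and 573 CPM in siKmt2e (0.91, adjusted p = 0.0152). The siSetdb1 library of replicate 2 stood apart in it. Summed with Gm10222, the difference was 0.92 ± 0.23 (adjusted p = 0.0129), 0.65 without that library (adjusted p = 0.343) and 0.73 without siKmt2e replicate 2 (adjusted p = 0.262), and without the block its adjusted p was 0.333.

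The Prl2c genes encode proliferins, prolactin-related growth factors. Summed over Prl2c1, Prl2c2, Prl2c3 and Prl2c5, siKmt2e held 1802, 1295 and 1739 CPM, nt 774, 504 and 833 CPM, siSetdb1 670, 660 and 1121 CPM and Mock 650 to 1205 CPM. Every siKmt2e library lay above every library of the other 3 groups. The sum was 1.20 ± 0.22 against nt (adjusted p = 4.54e-05) with 2 of 3 tested members called, 0.57 against Mock (adjusted p = 0.55) and 0.91 ± 0.14 against the other 31 siRNAs (adjusted p = 5.13e-07). In siSetdb1 it was 0.25 (adjusted p = 0.957), and the direct test gave -0.95 ± 0.21 (adjusted p = 0.00409). Without the block the adjusted p of siKmt2e against nt was 0.0881.

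Over 37 tested ribosomal protein genes the median difference was -0.08 in siSetdb1, with 0 called, and -0.00 in siKmt2e, with 1 higher (Rps7) and 1 lower (Rplp0), beside 0.763% higher and 0.531% lower over all genes tested. With copies summed, 6 of 84 features named for a ribosomal protein gene were higher and 1 lower in siKmt2e than in nt, beside 0.706% and 0.314% of all 2549. Against Mock, 0 of the 84 were called in siKmt2e, with a median of 0.07. These counts were made after the calls were seen. Rps3a1 encodes a protein of the small subunit, and its group of 7 genes held 6236, 5415 and 7841 CPM in siKmt2e, 3001, 2827 and 5101 CPM in nt, 3350, 3054 and 4908 CPM in siSetdb1 and 3835 to 8083 CPM in Mock. The sum was 0.87 ± 0.15 in siKmt2e against nt (adjusted p = 2.81e-05) with 3 of 6 tested members called, Gm7600, Gm5586 and Gm13408, and Rps3a1 itself at 0.51 ± 0.17 (adjusted p = 0.147). siKmt2e exceeded nt in each replicate and did not overlap it. It lay inside the range of Mock, and the sum was not called in siKmt2e against Mock. In siSetdb1 the sum was 0.06 against nt (adjusted p = 0.998) and -0.80 ± 0.15 against siKmt2e (adjusted p = 0.000162). Without the block the adjusted p of siKmt2e against nt was 0.536, and all tests that left out 1 library or 1 replicate kept it under 0.05.

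Rps7, another protein of the small subunit, has close copies over its last coding stretch. It is shown with 3 of them, of which Gm6472 and Gm9493 match it to the base, with capitals for bases that differ from Rps7.
Rps7, chr12:28631119-28631148, minus strand: gttaattttgaattcccagagtttcagttg
Gm6472, chrX:152909539-152909568, minus strand: gttaattttgaattcccagagtttcagttg
Gm8019, chrX:137100070-137100099, plus strand: gttaattttgaattcccagagtttcagCtg
Gm9493, chr19:23620288-23620317, plus strand: gttaattttgaattcccagagtttcagttg
Summed over the 17 genes of its group, siSetdb1 held 6050, 5371 and 8362 CPM, siKmt2e 14770, 9427 and 14900 CPM, nt 9066, 6298 and 11390 CPM and Mock 7842 to 16770 CPM. siSetdb1 was the lowest and siKmt2e the highest of the 3 in each replicate, and the direct difference was -0.99 ± 0.15 (adjusted p = 1.64e-07), with 8 of the 11 tested members called lower. Against nt the sum was -0.43 ± 0.15 in siSetdb1 (adjusted p = 0.581) and 0.57 ± 0.15 in siKmt2e (adjusted p = 0.0226), a call that held in 3 of 10 alternative settings. The siSetdb1 mean ranked 30th of the 35 conditions and that of siKmt2e 4th. The direct difference held without any 1 library or replicate, and without the block its adjusted p was 0.394.

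A group of 12 gene models with shared sequence, among them Gm10800, Gm21738 and Gm10722, was also higher in siKmt2e. It held 11570, 10920 and 17000 CPM in siKmt2e, 7001, 5151 and 8383 CPM in nt, 9341, 7443 and 8289 CPM in siSetdb1 and 10300 to 18700 CPM in Mock. siKmt2e did not overlap nt or siSetdb1 and lay inside the range of Mock. In the direct test of the knockdowns the sum was not called. Against nt the sum was 0.95 ± 0.19 in siKmt2e (adjusted p = 0.000724, 6 of 12 members called and all 12 above 0) and 0.30 ± 0.19 in siSetdb1 (adjusted p = 0.86). Against Mock siKmt2e differed by -0.10 (adjusted p = 0.98) and siSetdb1 by -0.75 (adjusted p = 0.0108), a call that held in 6 of 12 alternative settings and was lost without siSetdb1 replicate 2 or 3 (adjusted p = 0.0544 and 0.168) or the second Mock library of replicate 1 (adjusted p = 0.0613). The call of siKmt2e against nt was lost without replicate 3 (adjusted p = 0.0729) and without the block (adjusted p = 0.22).

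**Figure D4:**
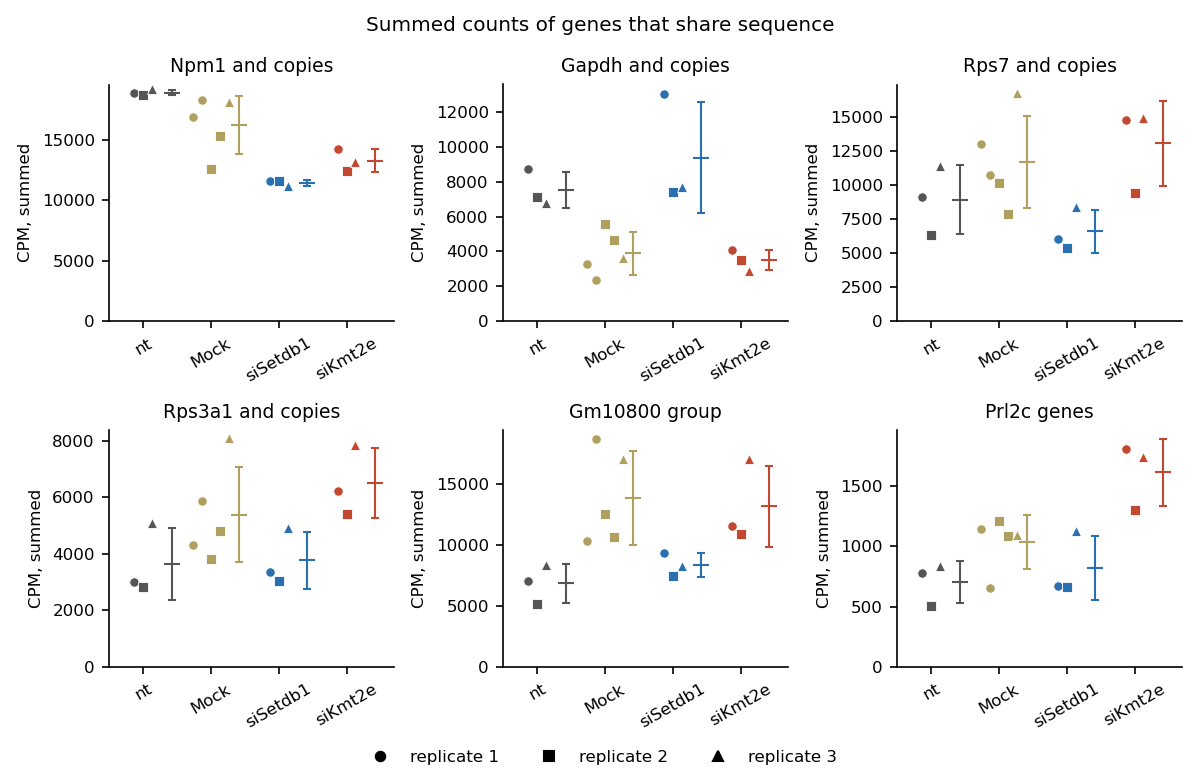
Summed level in CPM (y axis) of 6 groups of near-identical copies in each library of nt, Mock, siSetdb1 and siKmt2e (x axis), with the marker shape giving the replicate and the mean ± SD beside the points. In the Npm1 group nt lies above both knockdowns, in the Gapdh group siKmt2e lies below nt and siSetdb1, and in the Rps7 group siSetdb1 lies below siKmt2e in each replicate.

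Single-copy genes higher in siKmt2e than in nt included Slc25a24, an ATP-Mg/phosphate carrier of mitochondria, App, the amyloid precursor protein, S100a10, a partner of annexin A2, and Cdkn1a, the cell cycle inhibitor p21. Cdkn1a stood at 743, 907 and 583 CPM in siKmt2e, 383, 404 and 343 CPM in nt, 254 to 800 CPM in Mock and 585, 373 and 486 CPM in siSetdb1. siKmt2e did not overlap nt (0.95 ± 0.23, adjusted p = 0.0102), but overlapped Mock (0.34, adjusted p = 0.864) and siSetdb1 (-0.58 for siSetdb1 against siKmt2e, adjusted p = 0.196). Slc25a24 had 2, 0 and 6 counts in nt, the lowest mean of the 35 conditions, and stood at 109, 111 and 161 CPM in siKmt2e, 117, 65 and 56 CPM in siSetdb1 and 69 to 206 CPM in Mock (2.00 ± 0.55 in siKmt2e against nt, adjusted p = 0.0338, and 0.10 against Mock). App stood at 435, 370 and 201 CPM in siKmt2e and 200, 135 and 106 CPM in nt (1.15 ± 0.32, adjusted p = 0.039), and differed from Mock by 0.23. S100a10 was at 326, 296 and 402 CPM in siKmt2e and 117, 150 and 188 CPM in nt (1.15 ± 0.33, adjusted p = 0.0406), with a difference of 0.06 from Mock. Of the 35 transfected conditions, nt ranked 35th in Slc25a24, 34th in Cdkn1a and 31st in App. The calls of Slc25a24, App and S100a10 held in 6, 5 and 5 of 17 to 19 alternative settings.

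The genes lower in siKmt2e were led by the Gapdh group. Gapdh, the glycolytic glyceraldehyde-3-phosphate dehydrogenase, has many processed copies, and its last 30 coding bases are shown with 3 copies, with capitals for bases that differ from Gapdh.
Gapdh, chr6:125162035-125162064, minus strand: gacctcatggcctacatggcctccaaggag
Gm5652, chr12:5589620-5589649, minus strand: gacctcatggcctacatggTctccaaggag
Gm10327, chr10:33808500-33808529, minus strand: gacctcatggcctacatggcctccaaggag
Gm3695, chr12:81372216-81372245, minus strand: gacctcatggccGacatggcctccaaggag
Summed over 112 genes, siKmt2e held 4063, 3519 and 2891 CPM, nt 8728, 7110 and 6759 CPM, siSetdb1 13050, 7412 and 7712 CPM and Mock 2374 to 5560 CPM. siKmt2e lay below nt and siSetdb1 in every library and inside the range of Mock. The sum was -1.12 ± 0.20 in siKmt2e against nt (adjusted p = 2.81e-05), with 47 of 48 tested members below nt and 5 called, 0.31 ± 0.19 in siSetdb1 against nt (adjusted p = 0.839) and 1.43 ± 0.20 in siSetdb1 against siKmt2e (adjusted p = 8.5e-09), with all 48 members above 0 and 13 called. Among the 35 conditions siSetdb1 ranked 2nd and siKmt2e last. Against the other 31 siRNAs, siSetdb1 was 0.85 ± 0.13 (adjusted p = 3.05e-07) and siKmt2e -0.58 ± 0.15 (adjusted p = 0.0137). The calls of siKmt2e against nt and of the direct test did not rest on the block, with adjusted p of 0.0214 for siKmt2e against nt and 0.000347 for the direct test without it, nor on any 1 library or replicate, where the direct difference stayed between 1.12 and 1.61. The comparison of the group with the other siRNAs was not rerun in these settings.

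Gapdh itself did not pass the test. It stood at 333, 254 and 286 CPM in nt, 370, 308 and 327 CPM in siSetdb1 and 218, 185 and 181 CPM in siKmt2e, a difference of -0.59 ± 0.32 in siKmt2e against nt (adjusted p = 0.505) and of 0.78 ± 0.32 between the knockdowns (adjusted p = 0.219). Gm5652 stood at 351, 454 and 183 CPM in siSetdb1, 127, 37 and 30 CPM in siKmt2e and 250, 284 and 172 CPM in nt (2.32 ± 0.43 between the knockdowns, adjusted p = 7.05e-05). In Gm5210, siKmt2e held 1 count in all, nt 18 and siSetdb1 21, so that the ratio of siSetdb1 to siKmt2e was 20.1 with a counting interval of 3.23 to 831.

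Other genes were also lower in siKmt2e than in nt. Amd1 and Amd2 encode S-adenosylmethionine decarboxylase of polyamine synthesis and share 82.6% of their 15-base words. Amd1 stood at 163, 148 and 121 CPM in siKmt2e, 283, 494 and 376 CPM in nt, 195, 389 and 359 CPM in siSetdb1 and 103 to 323 CPM in Mock. It was -1.44 ± 0.31 in siKmt2e against nt (adjusted p = 0.00197, and 0.04 without the block) with no overlap, -0.35 against Mock (adjusted p = 0.963) and -0.92 against the other 31 siRNAs (adjusted p = 0.0304). The 7 genes of its group summed to -0.92 ± 0.24 against nt (adjusted p = 0.0203), a call that held in 3 of 10 alternative settings. Between the knockdowns Amd1 differed by 1.21 (adjusted p = 0.02), while the sum of its group was not called.

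Cse1l encodes the exportin that returns importin alpha to the cytoplasm, and stood at 218, 278 and 221 CPM in siKmt2e, 350, 733 and 409 CPM in nt and 292, 746 and 446 CPM in siSetdb1 (-1.03 ± 0.26 in siKmt2e against nt, adjusted p = 0.0163, and 1.04 between the knockdowns, adjusted p = 0.0127). Bzw2, a relative of the translation factor eIF5, stood at 290, 204 and 211 CPM in siKmt2e, 383, 658 and 523 CPM in nt and 331, 438 and 518 CPM in siSetdb1 (-1.17 ± 0.27, adjusted p = 0.00343, and 0.96 between the knockdowns, adjusted p = 0.0338). For both genes siKmt2e had the lowest mean of the 35 conditions and siSetdb1 ranked 4th. The nt mean ranked 1st in Bzw2 and 3rd in Cse1l, and that of Mock 20th and 25th. Neither gene was called lower in siKmt2e than in Mock. Summed with its copy, Bzw2 stood at 200.6 to 282.6 CPM in siKmt2e and 237.7 to 390.2 CPM in Mock. This sum was not called between the knockdowns. Utp3, a factor of ribosomal RNA processing, stood at 163, 37 and 50 CPM in siKmt2e and 250, 209 and 212 CPM in nt (-1.50 ± 0.41, adjusted p = 0.0338). The glycolytic gene Pgk1 differed by -0.77 between siKmt2e and nt (adjusted p = 0.00729), and Rplp0, of the large ribosomal subunit, by -0.67 (adjusted p = 0.0261). Summed with their copies they differed by -0.70 ± 0.19 over 3 genes (adjusted p = 0.037) and -0.60 ± 0.17 over 6 genes (adjusted p = 0.0487), and of 10 alternative settings of the sum the call held in 1 for Pgk1 and 0 for Rplp0. In Utp3, Pgk1 and Rplp0 the nt mean was the highest of the 35 conditions, though 2nd in the sum of the Rplp0 group, and siKmt2e differed from Mock by -0.07, -0.06 and -0.11. The calls of Utp3, Cse1l and Bzw2 against nt held in 5 of 18, 10 of 19 and 12 of 19 alternative settings.

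Taking the 2 knockdowns as 1 group against nt gave 6 calls, or 0.199%, with 2 higher (0.0664%) and 4 lower (0.133%), and 0 without the block (166 genes at an unadjusted p under 0.05). The lower genes were the Npm1 copies Gm5611 (-0.98, adjusted p = 3.94e-06), Gm17060 (-0.91, adjusted p = 2.06e-05) and Gm14681 (-0.65, adjusted p = 0.0192), and Gm14776 (-0.79, adjusted p = 0.00231). The higher genes were Gm21738 (0.78, adjusted p = 0.0191) and mt-Co3 (0.47, adjusted p = 0.0191). In both of the latter, as single genes, most of the difference lay in siKmt2e, as the direct test of the knockdowns gave -0.77 for Gm21738 (adjusted p = 0.0152) and -0.50 for mt-Co3 (adjusted p = 0.00961). With copies summed, the group of Gm21738 was called neither for both knockdowns against nt nor in the direct test. In Gm5611 the 2 knockdowns did not differ detectably (-0.06, adjusted p = 0.951). Because both comparisons use the same nt libraries, a low or high value in nt enters both.

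Against Mock, siKmt2e had fewer calls than siSetdb1. siKmt2e differed from Mock in 5 genes, or 0.166%, with 3 higher (0.0996%) and 2 lower (0.0664%), and siSetdb1 in 61, or 2.02%, with 15 higher (0.498%) and 46 lower (1.53%). Besides Gm42418 and Gm43333, siKmt2e differed in mt-Nd4l (-1.17, adjusted p = 0.00038) and its copy Gm10222 (-1.14, adjusted p = 0.000646). In siSetdb1 the Gapdh group was 1.28 ± 0.17 above Mock (adjusted p = 5.8e-09, all 48 tested members above 0 and 4 called) and the Rps7 group at -0.90 ± 0.14 (adjusted p = 5.49e-07, 7 of 11 members called lower). Ifitm3, an interferon-induced membrane protein that blocks viral entry, stood at 292, 584 and 470 CPM in siSetdb1 and 181 to 284 CPM in Mock (0.95, adjusted p = 0.039), and at 283, 254 and 384 CPM in nt. Of the 35 conditions Mock ranked last in Ifitm3, siSetdb1 6th and nt 24th. Without the block, siSetdb1 gave 0 calls against Mock (311 genes at an unadjusted p under 0.05) and siKmt2e 1. siSetdb1 gave 13 calls against Mock without siSetdb1 replicate 3 and 39 to 64 without any other single library. The 2 knockdowns together differed from Mock in 6 genes, all lower (0.199%). With the Mock libraries that share a name summed into 1, an alternative chosen after the data were seen, siSetdb1 gave 49 calls against Mock, siKmt2e 4 and both together 4.

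Set against the mean of the other 31 siRNAs, siSetdb1 had 27 calls, or 0.896%, with 20 higher (0.664%) and 7 lower (0.232%), and siKmt2e 63, or 2.09%, with 54 higher (1.79%) and 9 lower (0.299%). Both knockdowns together gave 14, or 0.465%, with 12 higher (0.398%) and 2 lower (0.0664%), and without the block these 3 comparisons gave 1, 5 and 1. The p-values of these tests leave out the spread between siRNAs, so they do not place a knockdown outside the range of the other siRNAs. Gm37376, a transcript opposite Malat1 (chr19:5801941-5802393, plus strand), was 1.93 ± 0.35 above them in siSetdb1 on the log2 scale (adjusted p = 0.000222). It held 26, 6 and 11 counts in siSetdb1, 1, 1 and 3 in siKmt2e and 6, 4 and 5 in nt, and differed by 2.87 between the knockdowns (adjusted p = 0.00408). The study's methods do not state whether strand was used in the counting, and whether reads of Malat1 entered this gene was not tested. With copies summed, 42 features were higher in siKmt2e than in the other siRNAs (1.65%) and 1 was lower (0.0392%), and TMM factors were 0.83 to 0.9016 in siKmt2e. With limma on the deposited log2 values of single genes, the 14 genes called in this comparison were 3 higher and 11 lower. On single genes edgeR gave 54 higher and 9 lower, so the preponderance of higher genes depended on the processing. Of 84 features named for a ribosomal protein gene 12 were higher and none lower, and of 17 named for a gene of mitochondrial DNA 6 were higher and none lower, namely mt-Nd6 (1.11), mt-Rnr2 (0.53), mt-Nd3 (0.46), mt-Cytb (0.40), mt-Co3 (0.40) and mt-Co2 (0.38). The medians over these 84 and 17 features were 0.23 and 0.26 beside 0.04 over all, and these counts, made after the calls were seen, were not rerun in other settings. The ribosomal group with the lowest adjusted p was that of Rpl30, with 11 genes, at 0.92 ± 0.13 (adjusted p = 4e-09). In siKmt2e the Rps3a1 group was 0.71 ± 0.10 above the other siRNAs (adjusted p = 3.08e-08) and the Rps7 group 0.54 ± 0.10 (adjusted p = 6.97e-05), while in siSetdb1 the Rps7 group was at -0.46 ± 0.11 (adjusted p = 0.0239). Gm5611 and Gm14776, called in siSetdb1 against nt, were at -0.06 and -0.04 against the other siRNAs.

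Lists tied to the 2 targets held few genes with enough counts. Of 17 genes of H3K9 methylation and its readers, 7 could be tested and none was called, with a median difference of 0.09 in siSetdb1 and 0.05 in siKmt2e against nt beside -0.0028 and -0.0008 over all genes. Trim28, which encodes KAP1, held 15, 4 and 15 counts in siSetdb1, 2, 7 and 6 in siKmt2e and 13, 7 and 15 in nt, with differences of 0.05 ± 0.41 and -0.95 ± 0.49 (adjusted p = 0.9997 and 0.459). Mphosph8, a reader of methylated H3K9 in the HUSH complex, held 7, 4 and 21 counts in siSetdb1, 5, 9 and 13 in siKmt2e and 12, 19 and 24 in nt, with -0.77 ± 0.37 and -0.78 ± 0.38 (adjusted p = 0.691 and 0.413). The HP1 gene Cbx5 differed by 0.30 ± 0.31 and 0.05 ± 0.33 (adjusted p = 0.946 and 0.978). Of 19 genes of the KMT2 family and its complexes, 5 could be tested and none was called. Ogt, the O-GlcNAc transferase that acts with HCFC1 in these complexes, held 11, 11 and 26 counts in siSetdb1, 6, 4 and 12 in siKmt2e and 10, 20 and 30 in nt, with -0.25 ± 0.34 and -1.18 ± 0.39 (adjusted p = 0.987 and 0.131). Dpy30, a core subunit, differed by -0.12 ± 0.34 and -0.21 ± 0.35. None of the 8 H3K9 demethylases reached the test.

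Germline genes, which SETDB1 is known to keep silent, stayed at or near 0. Over 24 germline and early embryonic genes, a library held 0 to 6 counts in siSetdb1, 0 to 4 in siKmt2e, 0 to 3 in nt and 0 to 1 in Mock, and 21, 23, 22 and 22 of the 24 had no count in these groups. Ddx4, an RNA helicase of germ cells, held 4 counts in siSetdb1, 0 in siKmt2e and 3 in nt in all. None was called when all listed genes with a count were tested. The table counts genes, so retroelements were not analysed here. Of 22 interferon-stimulated genes only 2 could be tested, and none was called against nt, with Ifitm3 at 0.52 ± 0.26 in siSetdb1 (adjusted p = 0.724). Among 20 imprinted genes, 11 were tested without a call, and the growth-restraining RNA gene H19 differed by 0.29 ± 0.24 in siSetdb1 and 0.26 ± 0.24 in siKmt2e.

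Several lists had members that leaned one way in siKmt2e without a call. Of 17 tested genes of mitosis 1 was above nt, with a median of -0.42, and the sum of the list was 1738 to 2051 CPM in siKmt2e, 2503 to 2858 in nt, 1938 to 2286 in Mock and 2358 to 3112 in siSetdb1. The sum in siKmt2e did not overlap nt or siSetdb1 and overlapped Mock. Top2a, topoisomerase II of chromosome condensation, differed by -0.63 ± 0.26 (adjusted p = 0.261). Of 10 tested sterol genes the median was -0.61, and the sum was 740.2 to 880.7 CPM in siKmt2e, 1188 to 1572 in nt, 844.8 to 1240 in Mock and 1024 to 1726 in siSetdb1. All 12 tested TGF-beta response genes were above nt in siKmt2e, with a median of 0.69, and the sum was 846.2 to 1087 CPM against 711.3 to 782.4 in nt, 642.3 to 1126 in Mock and 665.8 to 1060 in siSetdb1. On day 0 this list held 10780 to 12170 CPM, and the count filter used all conditions, so members with few counts in nt could be tested. A nt library held 57 to 112 counts of the whole list, so the median rests partly on low counts. In siSetdb1 the medians of the same lists against nt were 0.15, -0.05 and 0.37. No member of these 3 lists passed the test in either knockdown, and all of the siKmt2e sums overlapped Mock.

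In the remaining lists calls were few. Cdkn1a was the single call among 10 tested p53 targets, whose median in siKmt2e was -0.06. Pgk1 was the single call among 11 tested genes of glycolysis, with a median of -0.29. Over all genes tested, 1.29% were called in siKmt2e against nt. DNA replication (9 tested, medians -0.15 in siSetdb1 and -0.24 in siKmt2e), ATF4 targets (8 tested, 0.02 and 0.10), heat shock and stress (6 tested, 0.08 and 0.23) and histone genes (5 tested, 0.07 and 0.26) gave none against nt. Of 20 epithelial genes 1 could be tested, Perp, and the sum of the list was 417.8 to 438.5 CPM in siSetdb1, 226.4 to 274.5 in nt, 206.3 to 358.5 in siKmt2e, 140.8 to 282.6 in Mock and 241.3 to 536.2 on day 6 of the time course. The siSetdb1 libraries, with 27 to 62 counts in this list, lay above all nt, Mock and siKmt2e libraries, and no member passed a test.

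The time course shows where the called genes stood during reprogramming without siRNA. Between day 0 and day 6, 321 genes rose (10.7%) and 347 fell (11.5%). Over all genes tested, 0.133% were called lower in siSetdb1 against nt, and 0.763% higher and 0.531% lower in siKmt2e. Among the 321 that rose, siSetdb1 had 0 higher and 4 lower than nt, which are its 4 calls, and siKmt2e 2 higher and 5 lower. Among the 347 that fell, siSetdb1 had no call and siKmt2e 7 higher and 0 lower. The medians of the differences in siKmt2e were 0.05 and 0.15 for the genes that rose and fell, and in siSetdb1 -0.06 and 0.09. Between day 3 and day 6, 239 genes rose (7.93%) and 241 fell (8.0%), and siKmt2e had 1 higher and 6 lower than nt among the former and 8 higher and 1 lower among the latter, siSetdb1 0 higher and 3 lower among the former and none among the latter. The Npm1 group was at 1604 CPM on day 0, 7805 CPM on day 5 and 3896 CPM ± 347 (SD, n = 3) on day 6, below all 4 transfected groups on each of these days. Cdkn1a, at 756 CPM on day 0 and 939 CPM on day 6, was in untransfected cells above the means of nt, siSetdb1 and siKmt2e (377, 481 and 744 CPM).

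**Figure D5:**
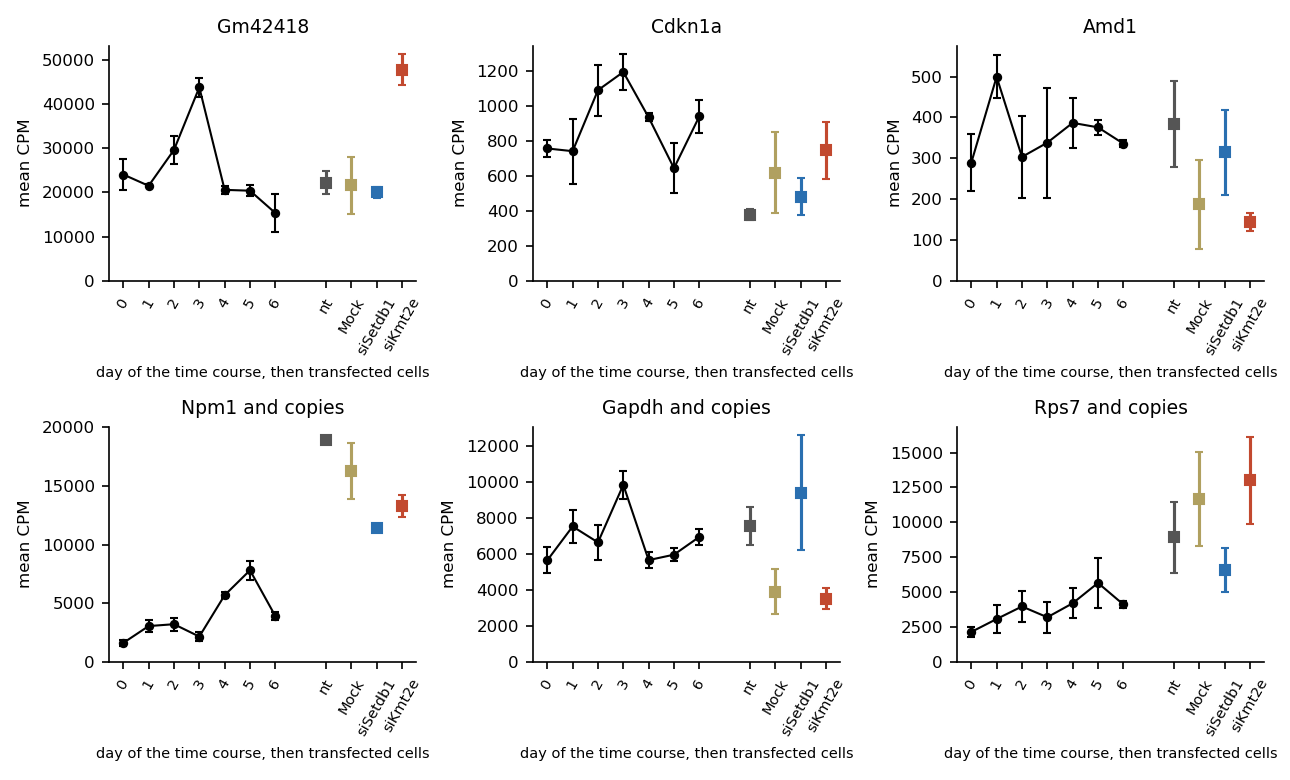
Level in CPM (y axis) of Gm42418, Cdkn1a, Amd1 and of the Npm1, Gapdh and Rps7 groups summed with their copies, on days 0 to 6 of the time course without siRNA (line, mean ± SD of 3 libraries) and in nt, Mock, siSetdb1 and siKmt2e (squares, mean ± SD). Gm42418 has its time course maximum on day 3 at 43820 CPM, and the Npm1 group lies lower on all days than in the 4 transfected groups.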

How the data were processed

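The authors mapped CEL-Seq2 reads with Bowtie2 to mm10, counted molecules with the CEL-Seq2 pipeline at standard settings on the GENCODE vM13 annotation, and dropped low-quality libraries, as the methods of the study state. The deposited counts are UMI-corrected whole numbers per gene symbol, not normalized. The authors made the log2 values by scaling with size factors and regressing out the batch, on a CPM basis, and these were used for 1 alternative. Condition and replicate of a library were taken from its column name. In the log2 table the single Mock column of replicate 3 was assigned to the Mock library whose counts correlated with it at r 0.9254, where the other gave 0.0321.

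Counts of the 127 libraries present in both tables were fitted with edgeR 4.0.16 in R 4.3.3 (TMM, filterByExpr, quasi-likelihood, a term per condition and per replicate). There were 83 residual degrees of freedom, a common dispersion of 0.0158, and Benjamini-Hochberg adjustment over 3013 genes at a threshold of 0.05. SE was taken from the test statistic. A second fit of 3256 genes added listed genes below the filter. The replicate number marks the sequenced pool; the methods do not define the batch that was regressed out. Deviations from the condition mean had a median correlation of 0.0981 between libraries of the same number and -0.0685 between others, and 0.0796, 0.127 and 0.248 for siKmt2e and nt, 0.153, 0.127 and 0.331 for siSetdb1 and nt, and 0.049, 0.0601 and 0.21 for siSetdb1 and siKmt2e. TMM factors were 0.83 to 0.9016 in siKmt2e, 0.972 to 0.976 in siSetdb1 and 0.923 to 0.984 in nt.

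Named genes were the 10 largest log2 fold changes per direction among calls with at least 50 CPM in 1 condition and an equal sign across replicates, the 5 of lowest p where under 5 passed, called or most abundant members of 24 gene lists, and both targets; Gm37376, Trim28, Ddx4 and members of copy groups were named with their values known. Comparisons, members and lists were chosen with earlier results of these data known. Sums over near-identical copies, from GENCODE vM21 transcripts, were added after the calls were seen. Ratios of counts carry exact 95% Poisson intervals, which cover counting error only. DESeq2 1.42.0 and limma 3.58.1 served as alternatives. The test was checked on simulated counts of siKmt2e against nt, with 50 genes changed per fold. It recovered 22% of genes at a fold of 0.5, 34% at 2, 52% at 0.25 and 92% at 4, and 2.91% of its calls were wrong.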

Additional observations from a re-analysis of the deposited data

Results flagged for a closer look

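In the direct comparison of siSetdb1 with siKmt2e, the named genes below had a difference past an adjusted p of 0.05 in edgeR's quasi-likelihood test with the replicate block, which is a test of the difference itself. Values are log2 differences, siSetdb1 minus siKmt2e. Copies of Gapdh were higher in siSetdb1: Gm5210 (3.82), Gapdh-ps14 (2.88), Gm10481 (2.78), Gm8055 (2.46), Gm5652 (2.32), Gm2308 (2.25), Gm10327 (2.21), Gm5430 (2.21), Gm13394 (2.19) and Gm3695 (2.14). Gm5210 and Gapdh-ps14 rest on 1 and 3 counts in siKmt2e, and the ratio for Gapdh-ps14 was 8.61 with a counting interval of 2.65 to 44.4. Gm37376, which lies opposite Malat1, was also higher (2.87), as were Amd1 (1.21), Amd2 (1.07), Cse1l (1.04), Bzw2 (0.96), and the mitochondrial pair Gm10222 (0.98) and mt-Nd4l (0.91), whose summed call was lost without siSetdb1 replicate 2. With copies summed, neither the group of Amd1 and Amd2 nor that of Bzw2 was called in this comparison.

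Lower in siSetdb1 were copies of ribosomal protein genes, namely Gm44261 (-1.18), Gm8019 (-1.15), Gm42845 (-1.07), Gm28530 (-1.07) and Rps7 (-0.83) of the Rps7 group, Gm7600 (-1.06), Gm5586 (-1.03) and Gm13408 (-0.89) of the Rps3a1 group, and Rps12-ps12 (-1.24). The gene models Gm11361 (-1.60), Gm10722 (-1.42), Gm10136 (-1.40), Gm42418 (-1.25), Gm43333 (-1.17) and Gm21738 (-0.77) were lower as well, and so were Prl2c3 (-0.90), mt-Co2 (-0.63) and mt-Co3 (-0.50). With copies summed, the group that holds Gm10722 and Gm21738 was not called in this comparison.

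Among the 5 Mock libraries, of which those of replicate 1 and of replicate 2 share a name, 1 library stood far from the others (Dixon's ratio above 0.71) in 5 of 56 groups of values tested, where chance alone gives about 1 in 20. These were the highest value of App (412 CPM), of Amd2 (496.5 CPM) and of Gm8055 (99.3 CPM), the lowest value of Cse1l (206.4 CPM), and the highest total count (83089). That total is of the only Mock library analysed from replicate 3, which was also the deepest replicate in nt, siSetdb1 and siKmt2e.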

How the results depend on the processing

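The counts of calls depended on the processing. They fell in all 10 comparisons without the replicate block, and also with limma on the deposited log2 values, while other settings raised some of them. In the order siSetdb1, siKmt2e and both against nt, the same 3 against Mock, siSetdb1 against siKmt2e, and the 3 against the other siRNAs, the counts were 4, 39, 6, 61, 5, 6, 67, 27, 63 and 14. Without the replicate block they were 0, 5, 0, 0, 1, 0, 4, 1, 5 and 1, and with limma on the deposited log2 values 0, 10, 0, 4, 1, 0, 10, 1, 14 and 5. With limma the split of calls into higher and lower was 3 and 7 for siKmt2e against nt, where edgeR gave 23 and 16, 3 and 1 for siSetdb1 against Mock (15 and 46), 6 and 4 in the direct test (26 and 41), and 3 and 11 for siKmt2e against the other siRNAs (54 and 9). With near-identical copies summed they were 1, 26, 3, 24, 3, 0, 25, 10, 43 and 17, and with copies summed and no replicate block the first 7 were 0, 4, 0, 2, 1, 0 and 2. Without a filter on low counts they were 3, 20, 11, 10, 7, 3, 24, 48, 50 and 29, and with a stricter filter 3, 41, 14, 92, 7, 35, 61, 14, 56 and 14. DESeq2 gave 0, 51, 20, 87, 6, 41, 61, 27, 63 and 20, and its size factors in edgeR moved only both against Mock by over 1.5 times, to 22. All 129 libraries with counts gave 2, 28, 3, 48, 4, 16, 57, 16, 50 and 12. A fit of only the libraries compared gave 20, 91, 37, 52, 8, 27, 86, 25, 75 and 13. With nt and Mock joined as control, the first 3 were 15, 10 and 6. The cause of these changes was not tested.

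Leaving out 1 library gave 2 to 3 calls for siSetdb1 against nt, 15 to 31 for siKmt2e against nt, 2 to 8 for both, 13 to 64, 2 to 5 and 0 to 12 against Mock, and 28 to 43 in the direct test. Leaving out a whole replicate gave 0 to 7, 9 to 29, 2 to 8, 6 to 28, 2 to 5, 0 to 0, 19 to 28, 1 to 18, 33 to 42 and 1 to 9. The ratio of Setdb1 to nt, 2.1 with all replicates, was 2.01 to 2.08 without replicate 1 or 2, while its ratio to the expected count was 0.921. The ratio of Kmt2e to nt was 1.23 without replicate 1, 1.08 without replicate 2 and 0.493 without replicate 3. The called differences of named genes and groups that were followed across settings did not change sign, while some that were not called did. Depth limits the rest: 3013 of the genes could be tested, neither target was measured precisely, and most chromatin and germline genes had too few counts for a test.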
